A study of Mus musculus with 474 samples.

Results

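Muscle samples rich and poor in macrophage RNA were compared by taking the extremes of Csf1r, the gene of the colony stimulating factor 1 receptor on which tissue macrophages depend for survival. The 100 samples, 21.1% of the series, were chosen by the deposited score of Csf1r: within each of 10 groups of 45 to 50 samples, formed from sex and the number in the sample titles read as generation, the 5 highest samples were called Csf1r-high and the 5 lowest Csf1r-low. Both sides therefore held 50 samples, 25 female and 25 male, with 5 of each sex from each of generations 17, 18, 19, 21 and 23. The remaining samples, 35 to 40 of each group, were not chosen. Each sample was skeletal muscle, gastrocnemius per the study's methods, from a different Diversity Outbred mouse, an outbred stock bred from inbred founder strains, and every animal in both sides had been kept on a high-fat, high-sugar diet. No other diet was part of these samples. The comparison asks which other genes move with macrophage RNA between animals.

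Macrophages are phagocytes that clear debris, present antigen and support repair, and in resting muscle most lie in the connective tissue between fibres and around vessels. CSF1R on their surface binds the ligands CSF1 and interleukin 34, and the signal maintains the cells. PU.1, encoded by Spi1, is a transcription factor of these myeloid cells. Resident macrophages are known for C1q, the mannose receptor CD206 (Mrc1) and the scavenger receptor CD163, and obesity is known to add macrophages to fat depots. In RNA of whole tissue, fewer cells of a type and less RNA per cell cannot be told apart.

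Promoters of 4 macrophage genes that rose together are shown because each holds the core of the PU.1 binding motif, GAGGAA, on at least 1 of the strands. They run from 250 bases before to 50 after the transcription start in RefSeq (GRCm38.p6), read 5′ to 3′ along the gene, and capitals mark GAGGAA or its reverse complement.
C1qb, chr4:136886151-136886450, minus strand: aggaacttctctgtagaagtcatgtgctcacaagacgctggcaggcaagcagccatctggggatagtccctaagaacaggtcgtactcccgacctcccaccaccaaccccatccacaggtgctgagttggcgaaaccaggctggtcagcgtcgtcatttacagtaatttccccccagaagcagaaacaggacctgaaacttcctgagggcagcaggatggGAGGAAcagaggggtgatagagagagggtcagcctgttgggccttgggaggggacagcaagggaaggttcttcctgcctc
C1qc, chr4:136892865-136893164, minus strand: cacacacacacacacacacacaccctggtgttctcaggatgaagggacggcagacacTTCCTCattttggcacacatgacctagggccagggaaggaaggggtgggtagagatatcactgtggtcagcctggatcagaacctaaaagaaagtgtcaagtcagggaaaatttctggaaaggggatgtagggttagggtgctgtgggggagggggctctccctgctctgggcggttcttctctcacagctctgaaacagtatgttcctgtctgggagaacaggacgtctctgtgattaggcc
Mrc1, chr2:14229164-14229463, plus strand: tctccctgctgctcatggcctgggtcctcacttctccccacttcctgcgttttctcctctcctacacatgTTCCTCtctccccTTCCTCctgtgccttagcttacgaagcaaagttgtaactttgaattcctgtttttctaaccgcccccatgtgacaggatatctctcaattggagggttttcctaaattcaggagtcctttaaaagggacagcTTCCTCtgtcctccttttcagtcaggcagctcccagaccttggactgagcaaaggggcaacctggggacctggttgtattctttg
Cd68, chr11:69666121-69666420, minus strand: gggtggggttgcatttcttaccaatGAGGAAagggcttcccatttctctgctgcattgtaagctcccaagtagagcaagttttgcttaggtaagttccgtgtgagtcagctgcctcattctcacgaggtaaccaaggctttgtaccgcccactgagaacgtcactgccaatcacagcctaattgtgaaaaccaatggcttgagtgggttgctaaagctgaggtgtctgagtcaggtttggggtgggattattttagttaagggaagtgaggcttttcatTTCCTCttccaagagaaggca
Over all 32851 RefSeq promoters of this length, 28.3% held GAGGAA on either strand, and 11 of the 17 entries that matched the macrophage core list without Csf1r held it. A longer ETS-IRF composite element, also sought on both strands, was found in 2.72% of all promoters and in those of Cd68 and Cybb among the 17. A match describes letters in this window and not a bound site. The 3 genes of the C1q chains are neighbours, with C1qb, C1qc and C1qa at chr4:136880129-136886187, chr4:136889804-136893065 and chr4:136895917-136898803 on the minus strand. C1qa has no entry in the promoter table used.

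Csf1r itself, which chose the samples, is described without a test. In CPM, counts scaled to a common library size, its lowest, median and highest values were 19.8, 23.02 and 34.4 in Csf1r-high samples and 6.76, 11.2 and 14.7 in Csf1r-low samples, against a median of 16.3 in the samples not chosen. Ranking by log2 CPM in place of the score would have chosen 48 of the same high and 45 of the same low samples, and ranking by the mean of the other core genes 27 and 28, with 0 moving to the opposite side. On the deposited score, a variance-stabilised value close to a log2 count, the high samples ran from 10.74 to 11.55 and the low samples from 9.43 to 10.37. The samples just inside and just outside the rule were close: over the 10 groups, the fifth highest sample exceeded the next by 0.00018 to 0.0825 of the score, and the fifth lowest lay 0.00204 to 0.0876 below the next. The span of Csf1r overlaps that of another gene in the deposited annotation, and whether counting used strand is not given in the sources used here.

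The label macrophage-rich held for the markers given with it. C1qa, a chain of the complement recognition protein C1q, had lowest, median and highest CPM of 8.08, 11.8 and 18.4 in Csf1r-high samples and 3.74, 6.44 and 9.74 in Csf1r-low samples, and 43 of the 50 high samples lay above every low sample. Its log2 difference was 0.94 ± 0.06 (SE), a 1.92-fold rise (edgeR quasi-likelihood test, adjusted p = 2.05e-25). Mrc1, the mannose receptor at chr2:14229392-14332057, ran from 13.6 over a median of 20.3 to 37.01 CPM in the high samples and from 6.41 over 12.0 to 18.7 in the low samples. Its log2 difference was 0.78 ± 0.06 (adjusted p = 1.37e-19), and the groups overlapped, with 32 high samples above every low one. Both genes were higher on the high side in all 10 groups, the difference of mean log2 CPM ranging from 0.62 to 1.16 for C1qa and from 0.52 to 0.93 for Mrc1.

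**Figure D1:**
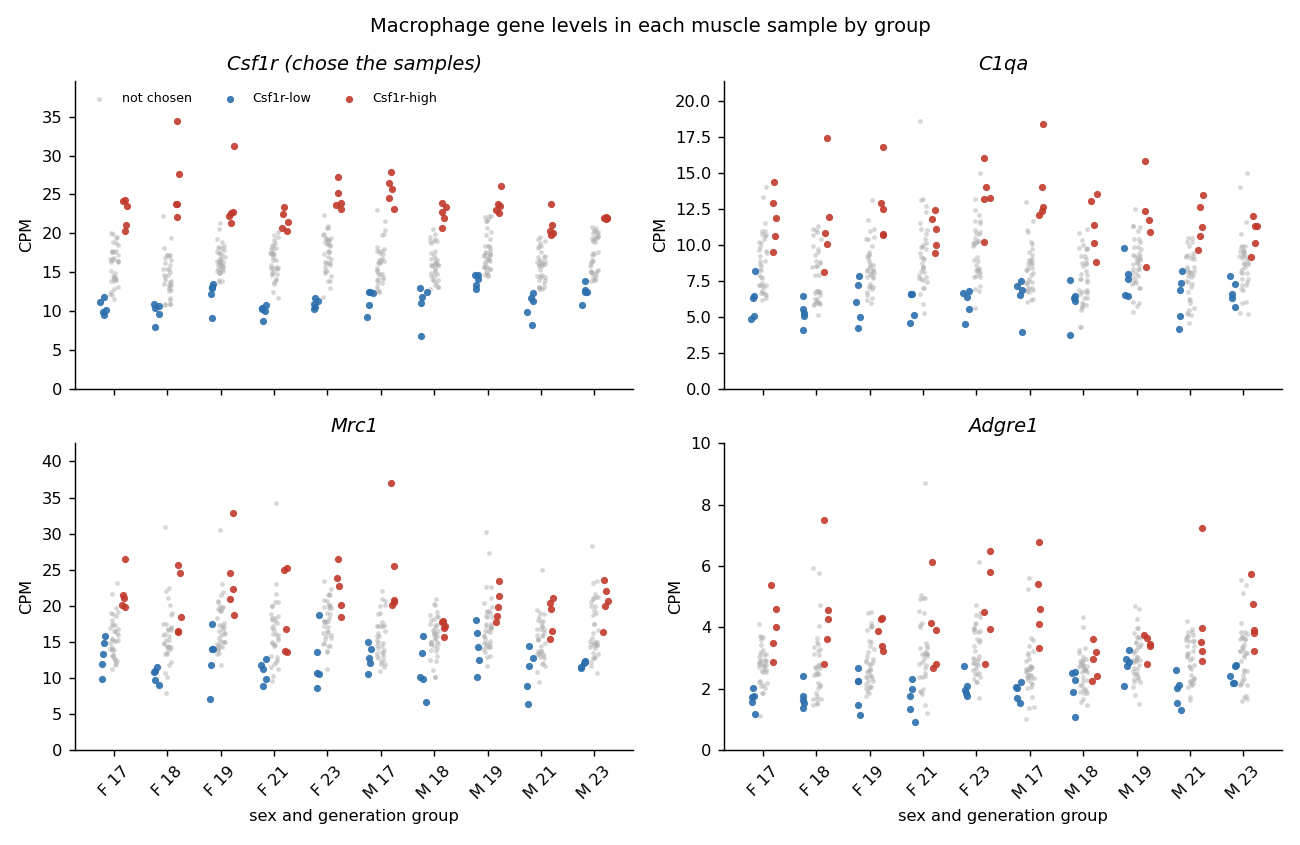
CPM (linear axis) of Csf1r, C1qa, Mrc1 and Adgre1 in every sample, by sex (F, M) and generation number. Each point is 1 animal, red for Csf1r-high, blue for Csf1r-low and grey for samples not chosen. Csf1r separates the sides by construction, and C1qa is higher in the red points of each of the 10 groups, with 43 of 50 above every blue point.

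Across the 18822 genes tested, Csf1r left out, 27.9% differed between high and low samples at an adjusted p under 0.05. Of these 5248 genes, 2960 were higher in Csf1r-high samples (15.7% of all genes) and 2288 lower (12.2%), with a median log2 difference over all genes of -0.01. Rises were larger than falls, since 1278 genes were called and at least 1.5-fold higher (6.79%) and 28 at least 1.5-fold lower (0.149%). With total counts in place of the trimmed-mean (TMM) factors, 94.4% of the calls were rises against 56.4%, since the median of all genes then lay at 0.08, so most falls depended on the scaling. By sign alone, 5.57% of genes were higher on the high side in all 10 groups.

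Macrophage genes rose together. Of the 21 tested members of the macrophage core list, 19 were called higher and none lower, with a median log2 difference of 0.99, and 18 were higher in all 10 groups. The other C1q chains rose like C1qa: C1qb by 0.99 ± 0.06 and C1qc by 0.98 ± 0.06 on the log2 scale (adjusted p = 1.73e-25 and 3.66e-25). Adgre1, which encodes the macrophage surface protein F4/80, had lowest, median and highest CPM of 2.26, 3.85 and 7.499 in high samples and 0.930, 2.03 and 3.25 in low samples. It differed by 1.01 ± 0.08 (adjusted p = 3.8e-18). Cd163, the haemoglobin scavenger receptor, ran from 10.4 over 20.7 to 39.03 CPM against 6.43 over 11.6 to 17.8, a log2 difference of 0.79 ± 0.07 (adjusted p = 1.44e-15). Cd68, an endosomal glycoprotein, rose by 0.98 ± 0.08 (adjusted p = 6.62e-17), and Tyrobp, an adaptor of myeloid receptors, by 1.08 ± 0.11 (adjusted p = 2.45e-13).

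Calls of Trem2, Mertk and Aif1 depended on the settings, fits within single library blocks aside. Trem2, a lipid-sensing receptor, was not called, at 0.43 ± 0.19 (adjusted p = 0.071), with median CPM of 0.286 and 0.228. It was called higher under 7 alternatives, among them total-count scaling (adjusted p = 0.03), limma on the deposited score (0.0244), the library block (0.0493), 10 samples per side (9.2e-05) and ranking by macrophage score (4.3e-05). Mertk, a receptor for dying cells, rose by 0.29 ± 0.08 (adjusted p = 0.00205), and 4 high samples exceeded every low sample. Its call was lost with the adipocyte score as a covariate (0.25, adjusted p = 0.129) and with 3 samples per side (adjusted p = 0.0913). Aif1, an actin-binding protein of macrophages, rose by 1.41 (adjusted p = 2.85e-07) and lost its call with the adipocyte score, at 0.72 (adjusted p = 0.141).

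Genes of resident-type macrophages followed the core list, with 14 of 16 members called higher and a median of 0.68. F13a1, coagulation factor XIII subunit A, ran from 14.5 over 21.8 to 37.1 CPM in high samples and from 7.02 over 12.9 to 19.3 in low samples, at a log2 difference of 0.80 ± 0.06 (adjusted p = 1.46e-19). Clec10a, a galactose-binding lectin, rose by 1.13 ± 0.10 (adjusted p = 8.44e-16) and Stab1, the scavenger receptor stabilin 1, by 0.49 ± 0.04 (adjusted p = 2.41e-15). Lyve1, a hyaluronan receptor that lymphatic vessels also carry, rose by 0.52 ± 0.08 (adjusted p = 3.25e-07). Ccl8, a chemokine, had a median of 0.715 CPM in high and 0.152 CPM in low samples and a log2 difference of 2.20 ± 0.31 (adjusted p = 2.05e-08). Gas6 and Cbr2 did not pass the test.

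Lists of other macrophage states differed in how many members were called. Of 10 alternatively activated members, 9 were called higher (median 0.81), among them Retnla, a secreted resistin-like protein, whose median was 12.96 CPM in high and 5.19 CPM in low samples, at 1.14 ± 0.14 (adjusted p = 3.62e-10). Of 20 lipid-associated members, 12 were called higher and 1 lower (median 0.35). Apoe, a lipid carrier, rose by 0.78 ± 0.09 (adjusted p = 5.38e-11) and Itgax, integrin CD11c, by 1.79 ± 0.26 (adjusted p = 2.71e-08), whereas Spp1, osteopontin, stood at 0.06 ± 0.14 (adjusted p = 0.81). Of 12 inflammatory members, 6 were called higher (median 0.48), with the co-stimulator Cd86 and Tlr2 having the smallest adjusted p. Of 11 monocyte members, 9 were called higher (median 1.06): Ccr2, the receptor for the chemokine CCL2, rose by 1.06 ± 0.18 (adjusted p = 1.36e-06), and Ly6c2, a marker of classical monocytes, was not called, at 0.30 ± 0.13 (adjusted p = 0.0761).

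The ligands of the receptor were measured apart. Csf1 had lowest, median and highest CPM of 8.93, 12.1 and 16.4 in Csf1r-high samples and 6.02, 8.76 and 17.1 in Csf1r-low samples, with 26 low samples below every high one. No high sample exceeded every low one. Its log2 difference was 0.42 ± 0.04 (adjusted p = 1.35e-12), positive in all 10 groups from 0.24 to 0.68. Il34, the second ligand, was not called, at 0.08 ± 0.06 (adjusted p = 0.384), with medians of 2.80 and 2.68 CPM. Of 14 genes downstream of the receptor, 12 were called higher (median 1.26), including the kinase Syk and the exchange factor Vav1, which other leukocytes also express. Without the lymphocyte-rich samples described below, 11 were called at a median of 0.66, and with the adipocyte score 7. Of 14 myeloid transcription factors, 7 were called higher and 1 lower: Spi1 rose by 1.21 ± 0.13 (adjusted p = 7.47e-12), and Maf, which muscle fibres also express, fell by 0.32 on the log2 scale (SE 0.06, adjusted p = 8.01e-06). The 7 rises among these factors (median 0.37) became 4 without lymphocyte-rich samples (median 0.06) and 1 with the adipocyte score, with 1 lower in each.

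Most effector lists of macrophages held more rises than falls. All 16 tested complement members were called higher, with a median of 0.90, and all 16 were higher in each of the 10 groups. C3, the central complement component, ran from 44.1 over 98.5 to 318.8 CPM in high and from 8.94 over 41.3 to 97.4 CPM in low samples, at 1.25 ± 0.13 (adjusted p = 1.68e-12). C4b, which acts downstream of C1q, rose by 1.34 ± 0.14 (adjusted p = 2.84e-13). C3, C4b and, below, Col3a1 were named after their values were seen. All 6 NADPH oxidase members (median 1.33), all 5 Fc receptors (median 0.81), 12 of 15 Toll-like receptor members (median 0.82), 10 of 16 phagocytosis receptors (median 0.23) and 14 of 18 chemokines (median 0.74) were called higher. Without lymphocyte-rich samples these counts were 6 (median 0.77), 5, 11, 7 and 8, and with the adipocyte score 5, 4, 8, 5 and 6. Lysosomal proteases and hydrolases were mixed, with 10 of 22 higher and 3 lower and a median of 0.09. Of 11 genes of iron and haem handling, 6 were called higher (median 0.21), 4 without lymphocyte-rich samples and 3 with the adipocyte score.

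B and T cell genes were prominent among the rises. The rule for named genes asked for a mean of at least 1 CPM over the 100 chosen samples, which a gene could reach through the high side alone, and for the same sign in all 10 groups. The 10 largest rises so listed, given as a description, included Ighd, Lck, Trbc2, Cd22, Cd4, Grap2, 2010016I18Rik, Ctse and Rasgrp1, most of them genes of lymphocytes. Of these 9, 2 also passed when the mean of 1 CPM was asked over all samples. Their calls are therefore a description: 9 were lost with the adipocyte score described below and 3 without lymphocyte-rich samples. Lck, a kinase of the T cell receptor, ran from 0 over 0.141 to 32.9 CPM in high samples and from 0 over 0.0376 to 0.237 CPM in low samples. Ighd, the heavy chain of immunoglobulin D on naive B cells, ran from 0 over 0.137 to 98.1 CPM against 0 over 0.0628 to 0.334 CPM. Both genes reached the mean through high samples, so no test is given for them. The medians on both sides were below 1 CPM, so a part of the high samples carried these differences. The filter on low counts asked for 0.126 CPM in at least 35 of all samples of the series. Without the Csf1r-high side, 9 of 11 T cell, 10 of 10 B cell and plasma cell, 12 of 12 pan-leukocyte and 1 of 4 NK cell members would have passed it, as would 6 of 7 neutrophil and 19 of 20 mitosis members. Calls of NK cell members are therefore not given, and T cell counts are a description. By list, 11 of 11 T cell members (median 3.86), 9 of 10 B cell and plasma cell members (median 4.37) and 12 of 12 pan-leukocyte members (median 1.95) were called higher. Among low samples alone, 0.126 CPM was reached in at least 35 of the 50 by 0 T cell and 3 B cell members, so these differences rest on few reads there.

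The summed CPM of 17 B and T cell genes, with Ighm, Igkc, Jchain and Mzb1 left out, ran from 1.53 over a median of 4.23 to 435.5 in Csf1r-high samples and from 1.59 over 2.45 to 5.42 in Csf1r-low samples. It exceeded 5 times the median of all samples, a line of 14.7 CPM, in 15 of 50 high samples, in no low sample and in 16 of the samples not chosen (4.28%). Of the 15, 11 were female and 4 male, and 6, 3, 2, 3 and 1 came from generations 17, 18, 19, 21 and 23. Their adipocyte score, the mean standardised level of 12 fat cell genes, ran from 0.525 to 2.43, and that of the other 35 high samples from -0.635 to 1.77. The part of lymphocyte-rich or fat-rich tissue in the comparison was not tested. The high-low, slope, sex and generation fits were repeated without lymphocyte-rich samples and with the adipocyte score as a covariate, and the library measures were not.

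**Figure D2:**
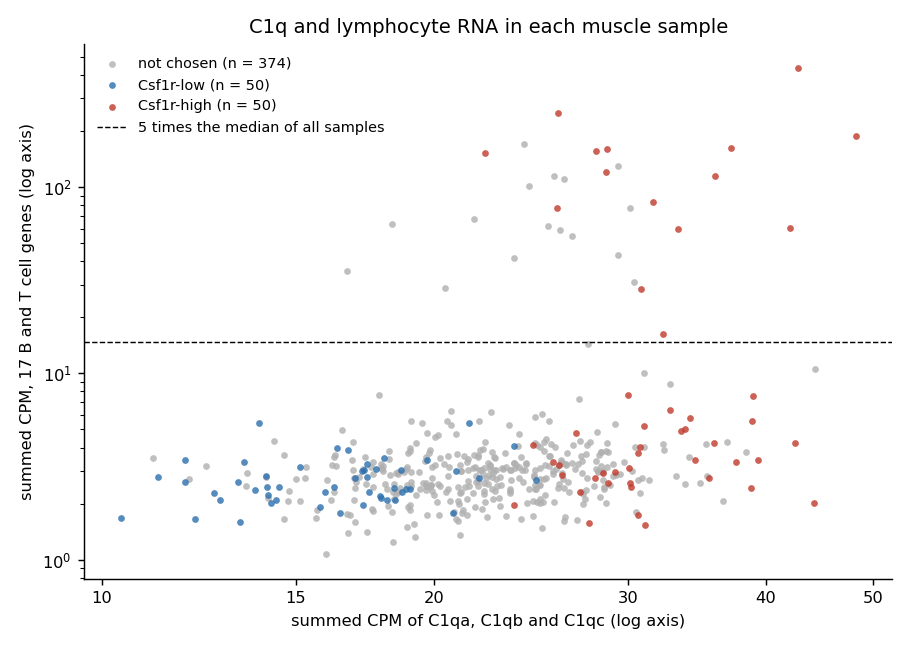
Summed CPM of the 17 B and T cell genes (vertical, log axis) against summed CPM of C1qa, C1qb and C1qc (horizontal, log axis) for each sample, with a dashed line at 5 times the median of all samples. Red Csf1r-high points lie right of most blue Csf1r-low points, and 15 of the 50 lie above the line, where no blue point lies.

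Without those 15 samples, 7.38% of genes were called higher and 3.85% lower, 2113 genes in all. The macrophage core list again held 19 calls, with a median of 0.83, and C1qa stood at 0.91 and Mrc1 at 0.77. The complement list held 16. Of the other macrophage lists, 13 of 16 resident-type, 7 of 10 alternatively activated, 9 of 20 lipid-associated, 7 of 11 monocyte and 2 of 12 inflammatory members were called higher. Of the lymphocyte lists, 5 of 11 T cell members (median 0.68) and 1 of 10 B cell members (median 0.36) were called higher, and the median of the 12 pan-leukocyte members, all called, was 0.80. Timd4, the phosphatidylserine receptor of resident macrophages, moved from a difference of 1.75 to 0.56 on the log2 scale, Laptm5, a lysosomal membrane protein of leukocytes, from 1.73 to 0.94, and mitosis members called went from 16 of 20 to 4 of 20. Of 18 interferon-induced genes 9 were called higher in the full comparison (median 0.45) and 4 without these samples.

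With the adipocyte score as a covariate, 3.08% of genes were called higher and 1.27% lower. The macrophage core list held 17 calls at a median of 0.85, the complement list 15 at 0.60 and the MHC class II list 6 of 8. No T cell, interferon-induced or mitosis member was called, and 1 of 10 B cell members was. Of the single genes of the receptor pathway, Csf1 was called at 0.33 (adjusted p = 1.45e-05) and Spi1 at 0.82 (adjusted p = 0.000404). Of monocyte members 3 of 11 were called higher, and of resident-type members 9 of 16. The lipid-associated list held 4 calls of 20 (median 0.21), the inflammatory list 2 of 12, the alternatively activated list 7 of 10 and the pan-leukocyte list 7 of 12 (median 1.01).

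**Figure D3:**
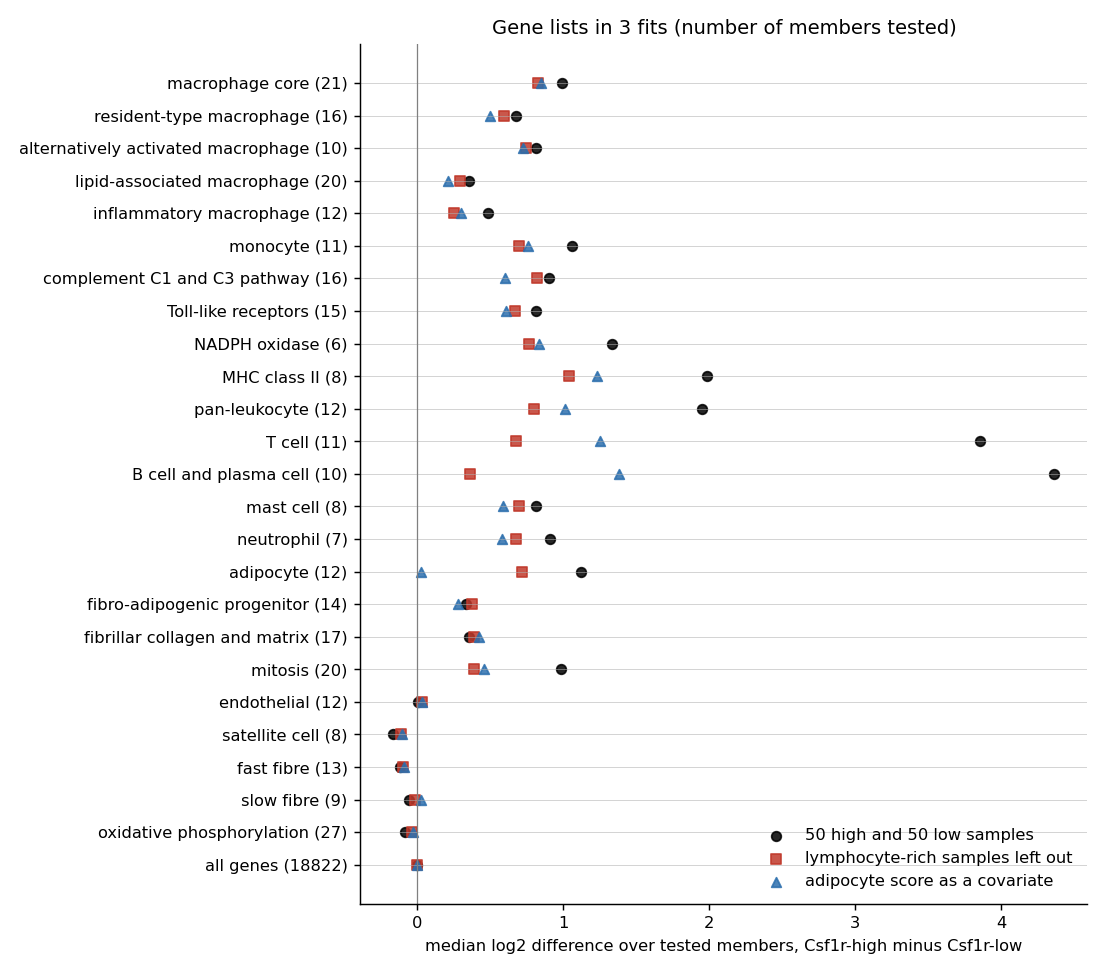
Median log2 difference, Csf1r-high minus Csf1r-low, over the tested members of each gene list (number in brackets), for the 50 against 50 samples (black), without lymphocyte-rich samples (red) and with the adipocyte score as a covariate (blue). The B cell median moves from 4.37 to 0.36 without lymphocyte-rich samples, while the macrophage core median moves from 0.99 to 0.83.

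Fat and connective tissue genes also differed. Of 12 adipocyte members, 10 were called higher (median 1.12), with none left once the adipocyte score made from the same genes was fitted. Plin1, which coats lipid droplets, ran from 5.49 over 22.2 to 108.7 CPM in high samples and from 1.79 over 9.10 to 48.9 CPM in low samples, at 1.25 ± 0.19 (adjusted p = 1.44e-07). Pck1, a gluconeogenic enzyme that fat cells also make, rose by 1.81 ± 0.27 (adjusted p = 9.64e-08). Of 17 collagen and matrix members, 15 were called higher (median 0.35) and 14 with the adipocyte score, with Col3a1, a fibrillar collagen, at 0.58 ± 0.08 (adjusted p = 3.19e-09). Of 14 members of fibro-adipogenic progenitors, the stromal cells of muscle, 11 were called higher (median 0.33) and 12 with the adipocyte score. Scara5, a ferritin receptor of these cells, rose by 0.41 ± 0.05 (adjusted p = 1.62e-11). With the collagen score as a covariate, 3957 genes were called, 13.2% of all genes higher and 7.81% lower. Of the progenitor members, 7 were then higher and 1 lower (median 0.15), and of the collagen and matrix members, from which the score was made, 4 were higher and 4 lower.

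Lists of other white cells also held rises. All 8 mast cell members were called higher (median 0.81), and Tpsb2, a mast cell tryptase, ran from 1.43 over 3.27 to 7.15 CPM in high samples and from 0.533 over 1.92 to 3.62 CPM in low samples, at 0.86 ± 0.11 (adjusted p = 5.29e-10). It stood at 0.79 without the lymphocyte-rich samples (adjusted p = 1.57e-07). Of 8 MHC class II members all were called higher (median 1.99), and H2-Ab1, a chain of the class II molecule that B cells also carry, moved from 1.98 to 1.19 on the log2 scale without the lymphocyte-rich samples (adjusted p = 1.9e-08). Of 12 MHC class I members 12 were called higher (median 0.82), of 10 dendritic cell members 8 were higher and 1 lower (median 0.90), and of 7 neutrophil members 5 were higher (median 0.91). Without lymphocyte-rich samples, 7 MHC class II (median 1.04), 11 MHC class I, 3 dendritic cell (median 0.39), 4 neutrophil and 6 mast cell members were called higher. With the adipocyte score, 4 MHC class I, 2 dendritic cell, 1 neutrophil and 5 mast cell members were.

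Several muscle lists held falls, most of which were lost with total-count scaling, and vessel lists held few calls. None of 12 endothelial members was called (median 0.00), against 4 higher with total-count scaling, under which 25.8% of all genes were called higher: Pecam1, a junction protein of vessels, had medians of 58.1 and 53.02 CPM, at 0.10 ± 0.05 (adjusted p = 0.108). No slow fibre member of 9 and no tendon member of 8 was called. The tendon list depended on the covariate, with 4 of 8 higher with the adipocyte score (median 0.35) and 6 of 8 lower with the collagen score (median -0.37). Of 13 fast fibre members 8 were called lower, with a median of -0.12, and 1 with total-count scaling, where the median was -0.03. Over all genes 12.2% were called lower, and 1.53% with total-count scaling. Tnnt3, fast troponin T, had medians of 13589 and 14944 CPM and fell by 0.16 on the log2 scale (SE 0.03, adjusted p = 7.47e-05), against -0.07 with total-count scaling. Oxidative phosphorylation members fell in 10 of 27 (median -0.08) and in 0 of 27 with total-count scaling (median 0.00). Tricarboxylic acid cycle members were lower in 9 of 16 and 1 of 16 in the same way. Of 8 satellite cell members 3 were called lower (median -0.16) and 2 with total-count scaling, with Myf5, a factor of muscle stem cells, at -0.38 ± 0.10 (adjusted p = 0.00119). Without lymphocyte-rich samples, 3 fast fibre, 0 oxidative phosphorylation, 1 tricarboxylic acid cycle and 1 satellite cell members were called lower, and with the adipocyte score none of these lists held a call. The next counts stand against 15.7% of all genes called higher and 12.2% called lower. Erythroid members were higher in 3 of 5, Schwann cell members in 1 of 10, and smooth muscle members were lower in 2 of 10. Glycolysis members were lower in 3 of 12, and denervation and atrophy members in 1 of 15 and 1 of 10. Immediate-early members were higher in 1 of 14, and mesothelial and epithelial members in 2 of 4 (median 1.09). Without lymphocyte-rich samples 0 mesothelial and epithelial (median 0.29) and 2 erythroid members were called higher, and with the adipocyte score 0 (median 0.46) and 1. With total-count scaling no glycolysis or lysosomal member was called lower, and 2 smooth muscle and 2 denervation members were called higher in place of the lower ones, against the 25.8% of all genes.

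The 10 largest falls by the rule were small, from -0.28 to -0.44 on the log2 scale, and named 2310002L09Rik, 4930506C21Rik, Bcl6, Gm29170, Hectd2, Hils1, Kcna5, Mospd1, Naa50 and Tob1. Tob1, a regulator of cell division, ran from 80.3 over 138.6 to 214.3 CPM in high samples and from 100.9 over 164.3 to 331.2 CPM in low samples, and fell by 0.31 (SE 0.05, adjusted p = 1.84e-06). Bcl6, a transcriptional repressor, fell by 0.33 (SE 0.09, adjusted p = 0.00332), and was lower in all 10 groups. Of the 10 falls, 6 lost their call with the adipocyte score, 4 without lymphocyte-rich samples, 7 with both and 2 with total-count scaling. 4930506C21Rik, Gm29170, Hectd2 and Hils1 overlap another gene in the annotation, so their counts are uncertain, as are those of Stab1, Il34, Maf, Gas6 and Tnnt3 for the same reason.

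The same genes were then read in the samples that the rule did not choose, as a slope on the score of Csf1r. Of 18822 genes, 10.3% had a positive and 5.54% a negative slope, 2978 in all. With the calls of the high-low comparison 2482 were shared with the same sign, 47.3% of the 5248 calls of the high-low comparison and 83.3% of the 2978, and none had the opposite sign. The 10 genes with the smallest p were C1qa, C1qb, C1qc, Mrc1, Adgre1, Clec10a, F13a1, Tyrobp, Pld4 and Ecm1. C1qb rose by 1.11 ± 0.07 log2 per unit of the Csf1r score (adjusted p = 5.99e-38), Mrc1 by 0.93 ± 0.07 (adjusted p = 9.65e-29) and Adgre1 by 1.22 ± 0.10 (adjusted p = 1.33e-23). Pld4, an endolysosomal nuclease of phagocytes and plasmacytoid cells, rose by 1.08 ± 0.09 (adjusted p = 1.01e-25), and Ecm1, an extracellular matrix protein, by 0.81 ± 0.08 (adjusted p = 1.26e-19). Trem2, not called between the extremes, had a slope of 1.43 ± 0.30 (adjusted p = 5.41e-05), and Mertk had none that passed (adjusted p = 0.107). The core list held 19 positive slopes of 21, the complement list 16 of 16, the resident-type list 14 of 16, the alternatively activated list 10 of 10 and the adipocyte list 11 of 12, while no endothelial member had a slope that passed. Of T cell and B cell members, 10 of 11 and 7 of 10 had positive slopes, and 5 and 1 without the lymphocyte-rich samples, where 8.46% of all genes had a positive and 5.28% a negative slope. Without the 16 lymphocyte-rich ones among these samples, the core list had 18 positive slopes of 21.

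**Figure D4:**
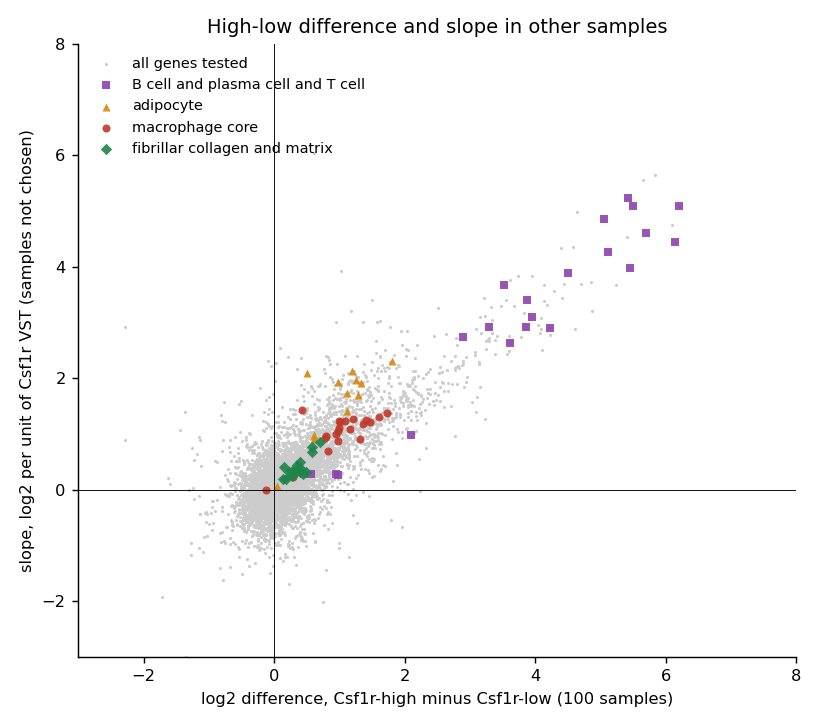
Log2 difference between Csf1r-high and Csf1r-low samples (horizontal) against the slope on Csf1r in the samples not chosen (vertical, log2 per unit of the deposited score), 1 point per gene with 4 lists coloured. Axes run from -3 to 8, and 7 of 18822 genes lie outside. Macrophage core genes lie mostly near 1 on both axes, and most B and T cell genes lie above 3 on the horizontal axis.

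The high-low difference was also fitted within each sex. In females 26.2% of genes were called and in males 5.08%, but a count in 1 sex and not in the other does not show a difference between them, and the test of the difference itself called 47 genes (0.25%). As a description, of B cell and T cell members, 10 of 10 and 11 of 11 were called higher in females and 6 and 8 in males. Among low samples alone, 3 B cell and 0 T cell members reached the filter on low counts. Macrophage core members were called higher in 18 of 21 cases in females and 16 of 21 in males, and C1qa stood at 1.04 and 0.84 (interaction adjusted p = 0.443). Of 20 mitosis members, 17 were called higher in females, against 0 higher and 1 lower in males. Elovl6, a fatty acid elongase, ran from 1.71 over 6.83 to 61.1 CPM in female high and from 0.701 over 1.48 to 7.59 CPM in female low samples, a log2 difference of 2.73 ± 0.32. In males it ran from 0.640 over 1.76 to 12.1 CPM in high and from 0.566 over 1.08 to 6.05 CPM in low samples, at 0.46 ± 0.31, and the difference between sexes had an adjusted p of 0.00798. Acaca, which makes malonyl-CoA for fatty acid synthesis, stood at 1.19 ± 0.14 in females and 0.16 ± 0.14 in males (interaction adjusted p = 0.00798), and Hsd17b12, a ketoacyl reductase of fatty acid elongation, at 0.94 and 0.15. Without the lymphocyte-rich samples, 11 of 15 of which were female, 1 gene was called, Il4ra, the interleukin 4 receptor, at a female minus male difference of 0.56. With the adipocyte score as a covariate, an alternative added after seeing the data, 2 genes were called, Gm10051 among them, and the difference was 1.48 for Elovl6 (adjusted p = 0.147), 0.69 for Acaca (adjusted p = 0.0871) and 0.49 for Hsd17b12 (adjusted p = 0.194).

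**Figure D5:**
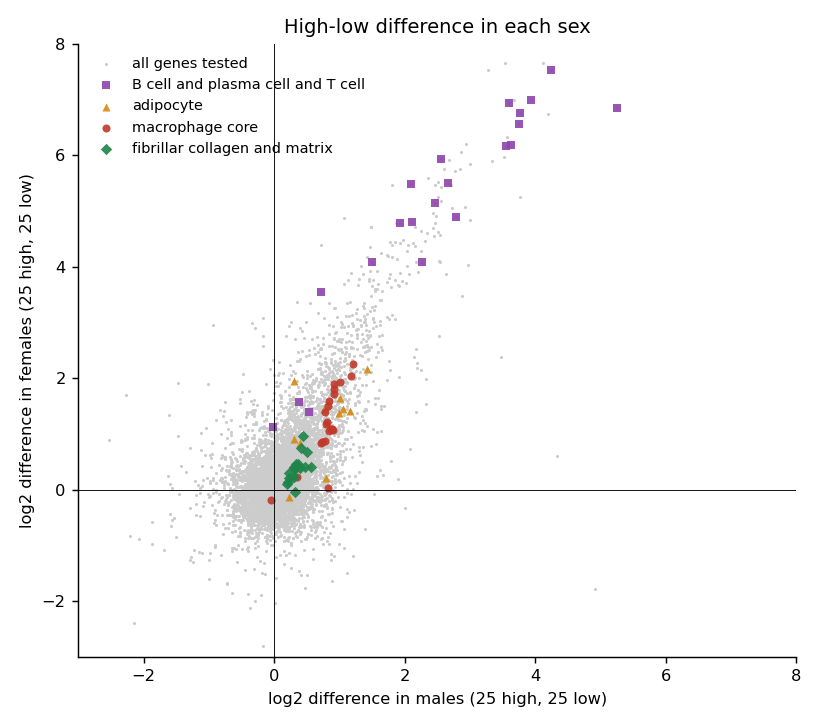
Log2 difference between Csf1r-high and Csf1r-low samples in males (horizontal) and females (vertical), each from 25 against 25 samples, 1 point per gene with 4 lists coloured. Axes run from -3 to 8, and 7 of 18822 genes lie outside. B and T cell genes reach higher on the female axis, and macrophage core genes lie near 1 on both.

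With 5 samples per side, no gene's high-low difference was shown to depend on generation: edgeR called 0 of 18822, with 3.71% at an unadjusted p under 0.05, and limma called 0 with 3.77%. With the adipocyte score as a covariate edgeR called 0, with 3.68% at an unadjusted p under 0.05. With 10 samples per side edgeR called 8 genes (0.0425%). Library depth did not separate the sides, with means of 81.6 and 80.9 M counts (megacounts, difference 0.619, permutation test within groups, 100000 resamples, adjusted p = 0.814). The share of mitochondrially encoded RNA had means of 9.98% and 10.6% (adjusted p = 0.386), and the share of the 10 most abundant genes 27.4% and 27.7% (adjusted p = 0.508). With 10 samples per side the mitochondrial share was lower on the high side, by a mean difference of -0.721 percentage points (permutation test, unadjusted p = 0.00535), while with 5 per side the difference of medians was -0.045. Blocks were cut here from the sorted library numbers in the titles, at 96 numbers or after a gap of more than 3. The labels do not name them as batches. The 100 samples came from all 5 blocks, with 10, 16, 8, 12 and 4 high and 11, 11, 9, 9 and 10 low samples. With block as a term 4884 genes were called. Xist, transcribed from the inactive X chromosome, ran from 104.9 to 523.7 CPM in females and did not exceed 0.618 CPM in males, and Ddx3y, on the Y chromosome, was 0 in all 50 females. The 5 animals whose sex-linked RNA went against their label were all among the samples not chosen. Every pair of the 100 samples differed by more than sampling noise, with a smallest chi-square per gene of 72.5 over 4950 pairs.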

How the data were processed

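Polyadenylated RNA of each muscle was sequenced as read pairs, and the authors aligned both mates as single reads to a transcriptome of the founder strains and estimated expected counts with EMASE, run by GBRS. The deposited expected counts are unscaled estimates, 68.6% of them whole to within 1e-06. The authors also deposited a score, the variance stabilising transform of DESeq2. The methods describe regressing out batch, and whether that was done for the deposited score, which chose the samples and sets the slope unit, is not given in the sources used here. Build GRCm38 is named in the submitters' processing notes. The deposited annotation gives gene positions in megabases, another unit.

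Counts were rounded and tested in R 4.3.3 with edgeR 4.0.16 (quasi-likelihood F-test, trended dispersion, adjusted p by Benjamini-Hochberg), with limma 3.58.1 and DESeq2 1.42.0 as alternatives and group as covariate. A minimum count of 10 by filterByExpr kept 18823 of 20612 genes, and Csf1r was left out of all tests. TMM factors ran from 0.871 to 1.29, and total counts from 35.9 to 165.7 M (megacounts) per sample. The 46 lists of genes and the chosen samples were set with earlier results of these data known, so a list's direction is not independent support. Named genes were members of the macrophage lists, up to 4 members with the smallest adjusted p or defining markers of other lists, the 10 largest rises and falls with at least 1 CPM and the same sign in all 10 groups, the 8 genes with the smallest adjusted p of the sex interaction, and the 10 with the smallest p of the slope. Scores are means of standardised values over a list. Of the fits, only the main high-low fit was tested on simulated counts. Leaving out lymphocyte-rich samples, and the adipocyte score in the sex and generation tests, were chosen after seeing the data. Reading the title number as generation is an assumption, since the methods name generations 18, 19 and 21 and not 17 or 23. Some genes that the rule names are not reported here.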

Additional observations from a re-analysis of the deposited data

Results flagged for a closer look

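A difference between the sexes in the high-low comparison met the test of the difference itself (edgeR interaction term) for 47 genes, of which 7 of those with the smallest adjusted p are given as the female minus male difference on the log2 scale. Acaca stood at 1.03 ± 0.20 (SE), Elovl6 at 2.26 ± 0.44, Il4ra at 0.66 ± 0.13, Hsd17b12 at 0.78 ± 0.16 and Arhgap15, a regulator of Rac, at 1.59 ± 0.34, all larger in females. Art3, an ADP-ribosyltransferase family member, stood at -0.52 ± 0.11, where the high side was lower in females. Gm10051 stood at -10.26 ± 1.85, and its count was 0 in 15 of 25 female high, 13 of 25 female low, 17 of 25 male high and 9 of 25 male low samples, with highest values of 0.215, 38.6, 32.2 and 0.264 CPM. Without the lymphocyte-rich samples, the differences were 0.65 for Acaca, 1.57 for Elovl6, 0.47 for Hsd17b12, 0.21 for Arhgap15 and -0.54 for Art3. With the adipocyte score as a covariate, they were 0.69 for Acaca, 1.48 for Elovl6, 0.49 for Hsd17b12, 0.54 for Il4ra and -0.51 for Art3. The part of lymphocyte-rich or fat-rich tissue in these results beyond this was not tested.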

How the results depend on the processing

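No paired analysis was possible because each animal gave 1 sample and no number is shared between groups. Values are percentages of the genes tested. The 27.9% called between high and low samples stayed within 1.5 times in number under total-count scaling, DESeq2 size factors, no filter, a minimum of 1 CPM, DESeq2, limma on the deposited score, 3 or 10 samples per side, ranking by log2 CPM or by the macrophage score, the library block, separate sex and generation terms, the collagen score and without the 5 samples whose sex-linked RNA went against the label, where 3957 to 5900 genes were called. It moved to 4.35% with the adipocyte score, to 11.2% without lymphocyte-rich samples, to 4.53% with both, and to 0.383, 0.584, 1.28, 0.0584 and 0% within blocks 1 to 5, where fewer samples entered each fit. In block 5 edgeR called 0 genes, and 1154 had an unadjusted p under 0.05. Genes at least 1.5-fold higher moved from 6.79% to 3.14% with a minimum of 1 CPM, 1.56% with limma, 1.17% with the adipocyte score, 2.56% without lymphocyte-rich samples, 1.25% with both and 0.234, 0.457, 0.861, 0.0425 and 0% within blocks. Genes at least 1.5-fold lower moved from 0.149% to 0.0531% with total counts, 0.127% with a minimum of 1 CPM, 0.234% with DESeq2, 0.0159% with limma, 0.0903% with 10 samples per side, 0.0531% with the adipocyte score, 0.085% without lymphocyte-rich samples, 0.0478% with both and 0.0106, 0, 0.0691, 0 and 0% within blocks. Slopes moved from 15.8% to 4.35% with the adipocyte score. Genes differing by sex moved from 0.25% to 0.0584% with limma, 0.112% with block, 2.45% with 10 samples per side, 0.00531% without lymphocyte-rich samples and 0.0106% with the adipocyte score, and genes differing by generation from 0 to 0.0425% with 10 samples per side. With 10 samples per side the difference in total count was -0.817 M (p = 0.726) and that in mitochondrial share -0.721 percentage points (p = 0.00535, both permutation tests). Among the macrophage core genes and the largest rises and falls, the single genes run under the alternatives, signs turned for Mertk within block 3 (-0.17), Trem2 within block 5 (-0.37), Kcna5 within block 2 (0.16) and Hils1 within block 5 (0.18). Apart from the smaller fits, the cause was not tested. Levels under 1 CPM rest on few reads and limit what the B cell, T cell and inflammatory lists can show.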
